A study of Zea mays with 9 samples.

Results

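The 213 gene models described here were lower in maize endosperm dissected at 8 to 12 days after pollination (DAP) than in young whole kernels. All stood at several times their endosperm levels in every whole-kernel sample from 0 to 6 DAP. They were chosen from the same read counts, out of 110028 gene models. The level v of a model is its CPM, the count relative to library size, with library sizes scaled by the TMM method. A model was taken when its lowest v over 0, 2, 3, 4 and 6 DAP was at least 10 and when that lowest value, with 1 added, was at least 4 times its highest v over 8, 10 and 12 DAP with 1 added. The level alone was met by 10062 models, and 216 of them (2.15%) also met the ratio. The rule leaves out 5 models by identifier, of which 3 had met it. The endosperm-to-kernel difference therefore chose these genes and is given below as a description only. The kernel course took part in the choice too, because a gene low at any kernel stage failed the rule: 322 models met it when 0 DAP was not required and 280 when 6 DAP was not. The courses within kernels are for that reason given as descriptions as well.

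The samples came from B73, a maize inbred line, grown in a greenhouse under 16-h days and self-pollinated. Endosperm separated from the embryo and pericarp was taken at 8, 10 and 12 DAP, and whole kernels were taken at 0 DAP (unpollinated), 2, 3, 4 and 6 DAP. Of 3 biological replicates gathered per stage, 1 was sequenced on the SOLiD 4 system after poly(A) selection, and 0 DAP has 2 technical libraries, a and b, whose reads were summed. Each stage is thus 1 biological sample, so no test between stages was possible, and the 95% intervals below cover counting error only.

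A young maize kernel is mostly maternal tissue: the nucellus that surrounds the embryo sac, and the ovary wall that becomes the pericarp. Endosperm and embryo arise from fertilization and grow within it. Whole-kernel RNA therefore mixes maternal tissue with the young seed tissues, whereas a dissected sample is meant to hold endosperm only. In these samples tissue and age change together, since every kernel was 6 DAP or younger and every endosperm 8 DAP or older, and the contributions of the 2 cannot be told apart. In bulk RNA, fewer cells of a type and less RNA per cell cannot be told apart either.

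The libraries held 17716275 to 40145710 counted reads. A v of 10 rested on 56.8 reads at 12 DAP, where the scaled library was smallest, and on 546.6 reads at 6 DAP. The tissue labels were checked with markers. The zein gene zp27, an endosperm storage protein gene, had v of 4.49, 3.72, 5.83, 7.93 and 1.28 in kernels at 0, 2, 3, 4 and 6 DAP, and 746, 2059 and 5544 in endosperm at 8, 10 and 12 DAP. Another zein model, z1A1_5, also had v of 189.8 to 204 at 0 to 4 DAP and 0.274 at 6 DAP. Reads of storage protein genes were thus counted in kernels labelled unpollinated, and both models were lower at 6 DAP than at 0 to 4 DAP. Of the other storage and starch markers, zp15, fl2 and sh2 were also lower at 6 DAP than at 0 to 4 DAP. For bt2 the difference was smaller, with 10.0 against 13.1 to 16.1, and o2 and bt1 stayed at or below 0.540 and 1.69 in kernels. The source of the storage protein reads was not tested. The part these reads play in the kernel values of the 213 genes was not tested. Of the 4 embryo and oil body markers, the oleosin gene ole1 had 62.7, 239 and 174 in endosperm against at most 1.42 in kernels, and the seed regulator vp1 0.732, 1.70 and 0.528 in endosperm against at most 0.512 in kernels. The meristem gene kn1 had 0.575, 0.314 and 0.352 in endosperm against 0.878 to 10.1 in kernels, and lec1 was at or near 0 in every sample. Markers of the endosperm transfer layer were already counted in the 6 DAP kernel, with v of 341 for betl2, 71.0 for meg1 and 154 for bap-3a. So were those of the embryo-surrounding region, with 97.3 for esr2 and 23.0 for esr6. All of them had at most 7.01 in kernels at 0 to 4 DAP. The green-tissue marker Lhcb5-1 had at most 1.81 in any sample, too low to trace maternal tissue. The part of embryo cells, or of adhering maternal cells, in the endosperm values was not tested.

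In dissected endosperm the 213 genes had median v of 1.99, 2.52 and 1.76 at 8, 10 and 12 DAP. In kernels their median v was 32.4, 35.7, 34.8, 39.1 and 36.9 at 0, 2, 3, 4 and 6 DAP. All 10062 models that met the kernel level had medians between 27.6 and 33.0 at every stage. In kernels the 213 genes together took 2.14%, 2.21%, 2.08%, 2.89% and 2.01% of the reads at 0, 2, 3, 4 and 6 DAP, and in endosperm 0.0929%, 0.0491% and 0.0108% at 8, 10 and 12 DAP. These are shares of all counted reads. By library totals the 10062 models fell as well, to medians of 76.9%, 36.6% and 9.91% of their 6 DAP levels at 8, 10 and 12 DAP. The ratio that the rule set at 4 or more had a median of 5.82. It was highest in GRMZM2G014844 at 24.8, but there it was 5.40 with technical replicate a of 0 DAP alone and 38.9 with b alone, and with a alone the gene was no member. The next was DL1 at 19.8. Just inside the threshold were GRMZM2G005195 at 4.02 and GRMZM2G076985 at 4.04, and just outside were GRMZM2G055450 and GRMZM2G474769, both at 3.93.

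The endosperm level of a member, as a percentage of its own v in the 6 DAP kernel, had a median of 5.08% at 8 DAP. At 10 DAP the median was 5.87%, and at 12 DAP it was 4.89%. The highest single values were 23.1%, 22.2% and 20.2% at these stages. Among all 10062 models the medians were 98.0%, 94.4% and 86.7%. The size of the remainder depends on the scaling, most of all at 12 DAP. By library totals the members' medians were 3.99%, 2.28% and 0.558%, and those of all models 76.9%, 36.6% and 9.91%. By TMM the remainder had no common order across the endosperm stages, with 77 members highest at 8 DAP, 92 at 10 DAP and 44 at 12 DAP. By library totals the members' quartiles fell together with the median. The lower and upper quartiles were 1.92% and 7.61% at 8 DAP, 1.41% and 3.58% at 10 DAP, and 0.319% and 0.840% at 12 DAP. The order thus depends on the scaling, and it was not counted among all 10062 models. Members with 0 reads numbered 3 at 8 DAP, 0 at 10 DAP and 6 at 12 DAP, and a count of 3 equalled a v of 0.157, 0.189 and 0.528.

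**Figure D1:**
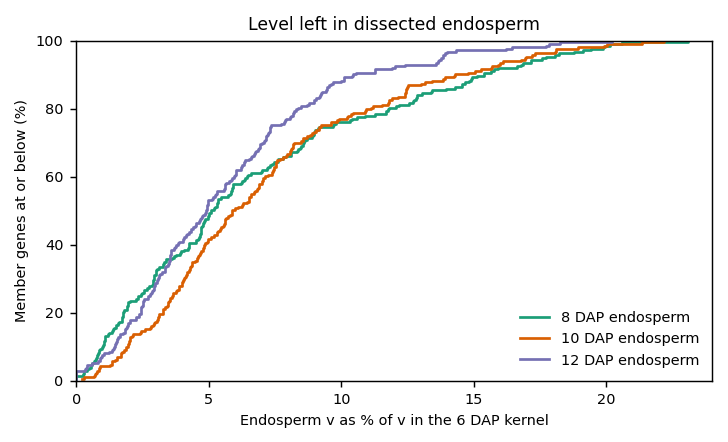
Cumulative share of the 213 genes (y axis, %) whose endosperm v was at or below a given percentage of their v in the 6 DAP kernel (x axis, %), with 1 line for each endosperm stage. The lines cross their midpoints near 5.08% at 8 DAP, 5.87% at 10 DAP and 4.89% at 12 DAP, and no gene exceeded 23.1%; the values chose the genes and are a description.

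Within kernels a smaller share of the 213 genes than of all models at the same minimum level kept a steady course. Each gene was put in a class by its v + 1 at the kernel stages. It was steady when its highest value was under 2 times its lowest. Otherwise it was falling or rising when 6 DAP was at most 1/2 of, or at least 2 times, 0 DAP, and otherwise a passing peak or a passing dip. Of the members 87 (40.8%) were steady, against 68% of the 10062 models that met the kernel level. Passing peaks made up 39 (18.3%) of the members against 7.78% of all models, and passing dips 32 (15.0%) against 6.46%. Falling genes made up 26 (12.2%) against 6.42%, and rising genes 29 (13.6%) against 11.4%. The steady share was lower among members at each level of expression: it was 40.2% against 63.3% for a lowest kernel v of 10 to 20, 39.5% against 71.2% for 20 to 50, and 45% against 72.2% above 50. With technical replicate a or b of 0 DAP alone 27 members changed class, and the same count was not made for all models. These shares are descriptions of 1 library per stage and were not tested.

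**Figure D2:**
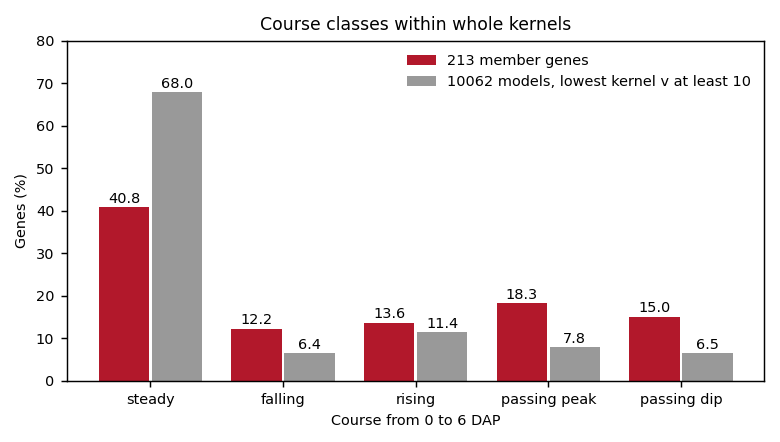
Share of genes (%, y axis) in each class of course from 0 to 6 DAP (x axis), for the 213 genes (red, left) and for the 10062 models whose lowest kernel v was at least 10 (grey, right). The steady class holds 40.8% of the 213 genes and 68% of all such models, and the members' share is the larger in each of the other classes.

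A call between a later and an earlier kernel stage needed a 2-fold ratio of v + 1 or more, a v of 10 or more in the higher sample, and an exact binomial 95% interval of the ratio that left out 1. At 2 DAP 19 members were higher and 25 lower than at 0 DAP, against 4.9% higher and 3.65% lower of all 10062 models. At 3 DAP 7 were higher and 11 lower than at 2 DAP, against 1.45% and 1.27% of all models. At 4 DAP 15 were higher and 8 lower than at 3 DAP, against 1.5% each of all models. At 6 DAP 16 were higher and 19 lower than at 4 DAP, against 3.43% and 2.85% of all models. That split moved with the scaling, to 13 higher and 27 lower by DESeq2 size factors, 14 and 27 by TMM over the kernel libraries alone and 12 and 28 by library totals, with or without the 100 most counted models. From 0 to 6 DAP 29 were higher and 26 lower at 6 DAP, against 11.4% and 6.42% of all models, and by library totals the split was 24 and 39, or 24 and 38 without the 100 most counted models. As shares of the members, the genes called in either direction were 20.7%, 8.45%, 10.8% and 16.4% over the 4 steps. The same calls between the technical replicates of 0 DAP named 2 members as higher in b and 0 as lower, a share of 0.939% of the members, against 0.507% and 0.368% of all models. The members called in at least 1 of the 5 contrasts, with 6 over 0 DAP as the last, numbered 107 (50.2%), against 26% of all models.

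The stage of the highest kernel value was 6 DAP for the largest number of members, then 0 DAP and 4 DAP. Members highest at 4 DAP numbered 46 (21.6%), against 12.3% of all models. At 0, 2, 3 and 6 DAP the shares were 24.4%, 14.1%, 11.7% and 28.2% of the members, against 21.9%, 19.6%, 15.9% and 30.2% of all models. Among the 39 passing peaks 24 were highest at 4 DAP, 11 at 2 DAP and 4 at 3 DAP. Passing dips had their lowest value at 2 DAP in 14 genes, at 3 DAP in 14 and at 4 DAP in 4. The passing peaks and passing dips among all models were not split by stage, so these counts describe the members only. The median v of the passing peaks was 26.9, 48.0, 37.4, 55.7 and 34.2 at 0, 2, 3, 4 and 6 DAP, while that of the passing dips was 45.4, 25.4, 30.8, 36.5 and 52.0. Over the same stages the rising genes had medians of 27.5, 41.0, 37.5, 56.5 and 86.6, and the falling genes 62.8, 39.1, 44.7, 42.0 and 23.1.

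**Figure D3:**
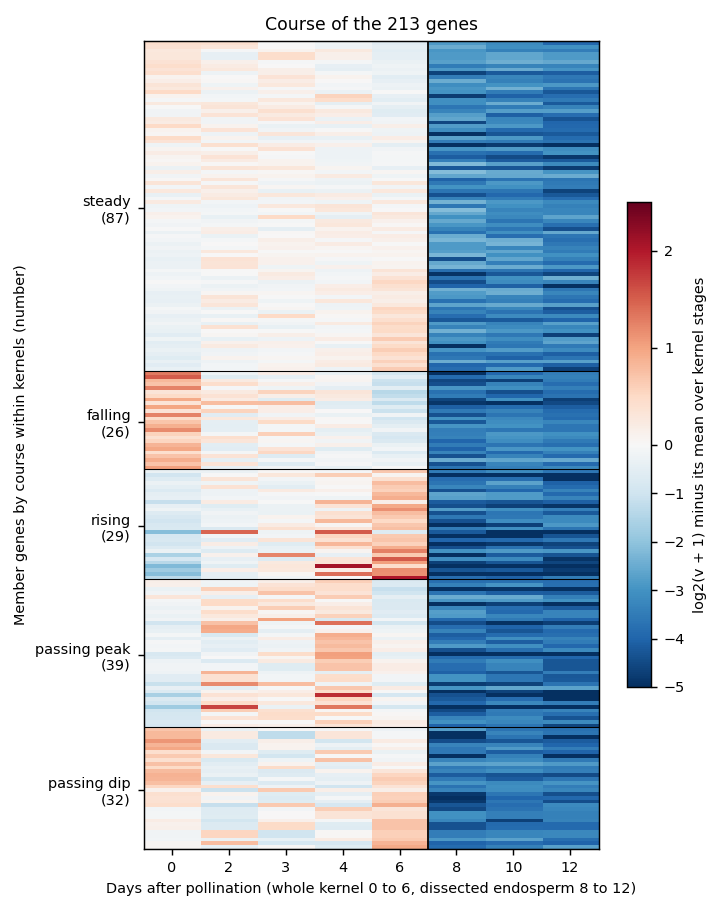
Each line is 1 of the 213 genes, grouped by class of course, and each column 1 stage, with kernels left of the black line and endosperm right of it; colour gives log2(v + 1) minus the gene's mean over the kernel stages. Red at 0 DAP marks the 26 falling genes, red at 6 DAP the 29 rising genes and red at 4 DAP many of the 39 passing peaks, and all genes are blue in endosperm.

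Of the 213 genes 149 were matched to a record in a table of RefSeq genes, and 37 carried a usable name. At the kernel level 834 models carried a usable name, so the share beside each family count below is 37 of 834. Most families had few genes at that level, and their counts were not tested. Among the 37 named members were 16 steady genes, 7 passing peaks, 6 passing dips, 5 falling and 3 rising genes. The named members are described by role. Counts of 14 members ran within 2% of those of another member in every library, so such genes may share reads. Reads also scale with transcript length, so levels are compared between stages of a gene and not between genes.

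The largest move of a named gene was that of glu1, a beta-glucosidase that frees benzoxazinoid toxins from their stored glucosides. Its v was 331, 1327, 1262, 3713 and 571 in kernels at 0, 2, 3, 4 and 6 DAP, and 48.9, 22.1 and 26.4 in endosperm at 8, 10 and 12 DAP. The technical replicates of 0 DAP gave 323 and 337, and the 4 DAP value rested on 110054 reads. Expression at 4 DAP was 11.2 times that at 0 DAP (95% interval 11.1 to 11.4). glu1 took 0.557% of all reads at 4 DAP, against 0.0524% to 0.198% at the other kernel stages, and the other members together took 2.33% at 4 DAP and 1.89% to 2.09% at the other kernel stages. Its relative glu2, also a beta-glucosidase, had v of 38.2, 128, 64.8, 201 and 39.8 in kernels and 2.56, 1.51 and 1.94 in endosperm. Its highest kernel value was 5.24 times its lowest (95% interval 5.01 to 5.49). Both genes rose at 2 DAP against 0 DAP and at 4 DAP against 3 DAP, and both fell at 6 DAP against 4 DAP.

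Another member of the pathway was BX5, a cytochrome P450 that hydroxylates the benzoxazinoid core. Its v was 109, 206, 184, 185 and 61.1 in kernels and 1.62, 3.58 and 2.46 in endosperm. It was highest at 2 DAP and fell at 6 DAP against 4 DAP, and the spread of its kernel values was 3.36-fold (95% interval 3.22 to 3.51). Of the benzoxazinoid genes with a lowest kernel v of at least 10, 3 of 5 were members, in a list added after the data were seen. BX4, another P450 of the pathway, did not reach the ratio, with v of 83.0, 106, 124, 83.4 and 20.3 in kernels and 5.23, 1.89 and 2.64 in endosperm. The glucosyltransferase bx8 was not lost, with 59.4, 44.2 and 36.2 in endosperm against 22.4 to 50.7 in kernels.

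Among regulators, DL1 had the largest kernel-to-endosperm ratio of the named genes. It shares its name with rice DROOPING LEAF, a YABBY factor of the carpel and leaf midrib in rice. Its v was 106, 165, 142, 136 and 88.6 in kernels and 1.20, 3.52 and 2.11 in endosperm, which made it steady in kernels. Of the YABBY and KANADI genes with a lowest kernel v of at least 10, 1 of 2 was a member, and the other, YAB5, had 8.47, 23.3 and 7.39 in endosperm against 20.7 to 129.5 in kernels.

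Of 24 detected bHLH factors, a family of DNA-binding transcription regulators, only 4 met the kernel level, and 3 of these were members. bHLH30 was steady, with v of 76.1, 61.7, 91.1, 81.2 and 60.5 in kernels and 1.41, 2.83 and 2.99 in endosperm. bHLH108 had 117, 40.4, 53.4, 37.5 and 24.3 in kernels and 0.470, 2.14 and 3.34 in endosperm. It was falling: 6 DAP was 0.207 times 0 DAP (95% interval 0.195 to 0.219), and it had fallen by 2 DAP. bHLH116 had 265, 85.4, 137, 64.3 and 143 in kernels and 4.70, 5.41 and 5.98 in endosperm. It was low at 2 and at 4 DAP, high at 0, 3 and 6 DAP, and its highest value was 4.12 times its lowest (95% interval 3.93 to 4.32).

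The early fall was shared by a GATA-family zinc finger factor and 1 of the TIFY factors, a family that includes repressors of jasmonate signalling. GATA28 had v of 30.7, 13.5, 26.3, 18.6 and 11.1 in kernels and 0.0523, 1.32 and 1.06 in endosperm, so that 6 DAP was 0.361 times 0 DAP (95% interval 0.329 to 0.395). The TIFY factor ZIM18 had 64.0, 25.7, 22.8, 19.3 and 18.2 in kernels and 2.67, 2.26 and 1.58 in endosperm, with 6 DAP at 0.284 times 0 DAP (95% interval 0.265 to 0.304). Both fell at 2 DAP against 0 DAP, although that call for GATA28 is lost with technical replicate b alone (ratio of v + 1 of 0.405 with a and 0.503 with b), and GATA28 was back at 26.3 at 3 DAP while ZIM18 stayed low. TIFY2, from the same family as ZIM18, had 31.0, 16.7, 31.1, 14.6 and 21.4 in kernels and 0.993, 1.19 and 1.06 in endosperm, with lows at 2 and 4 DAP. Of 10 TIFY genes that met the kernel level, 2 were members, in a list added after the data were seen.

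MADS-box factors, several of which specify floral organs, gave 5 members of the 14 that met the kernel level. zmm8, related to SEPALLATA genes, had v of 18.1, 17.2 and 3.34 in endosperm against 249.8 to 400.2 in kernels. zmm7, of the same branch, had 102, 94.0 and 42.7 in endosperm against 465 to 676 in kernels. The PISTILLATA-like zmm29 had 53.4, 71.7, 85.0, 92.4 and 105 in kernels and 4.13, 4.46 and 3.69 in endosperm, and MADS18 had 124, 150.5, 165, 191 and 240.5 in kernels and 11.7, 11.9 and 8.97 in endosperm. Both were higher at every successive kernel stage and stayed just under the factor of 2 that ends the steady class. They are neighbours in the RefSeq gene order. MADS15 had 28.7, 24.7, 23.9, 36.7 and 49.9 in kernels and 3.50, 4.09 and 1.41 in endosperm. The KNOX homeobox gene lg3, a relative of the shoot meristem gene kn1, was the only member among 11 homeobox genes at the kernel level, with 20.5, 19.4, 15.8, 12.9 and 11.2 in kernels and 1.99, 1.01 and 1.06 in endosperm.

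**Figure D4:**
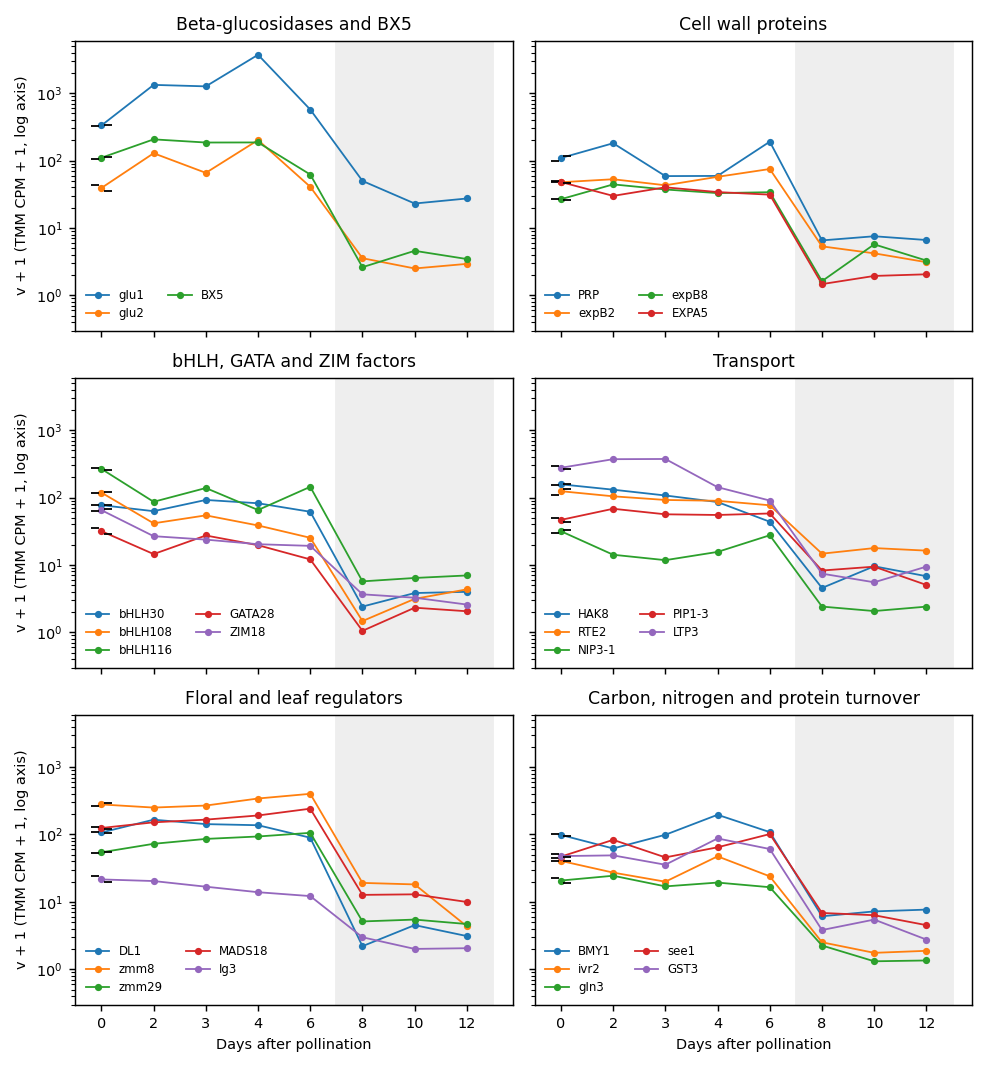
v + 1 (log axis) of named genes at each stage (x axis, days after pollination, evenly spaced), in 6 groups by role. Points are 1 library each, except 0 DAP, which sums the technical replicates a and b shown as black ticks; the grey area is dissected endosperm. glu1 stands at 3713 at 4 DAP, bHLH116 has lows at 2 and 4 DAP, and HAK8 is lower at each kernel stage than at the one before.

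Of the cell wall genes 4 of 17 at the kernel level were members. Expansins loosen cell walls during growth, and the 3 expansin members were steady in kernels. EXPA5 had v of 47.0, 28.9, 39.1, 33.1 and 30.2 in kernels and 0.470, 0.943 and 1.06 in endosperm. expB2 had 46.7, 51.9, 42.0, 56.4 and 74.0 in kernels and 4.34, 3.21 and 2.11 in endosperm, and expB8 25.7, 43.3, 36.3, 31.9 and 33.0 in kernels and 0.627, 4.72 and 2.29 in endosperm. PRP, a proline-rich wall protein, moved more, with 108, 180.0, 57.9, 58.2 and 189.7 in kernels and 5.54, 6.54 and 5.63 in endosperm. It fell at 3 DAP against 2 DAP and rose at 6 DAP against 4 DAP, a span of 3.28-fold (95% interval 3.12 to 3.44). GRMZM2G168651, listed under the name of a hydroxyproline-rich glycoprotein that 1 other model carries too, had 844, 589, 411, 622 and 981 in kernels and 19.97, 40.7 and 42.6 in endosperm. It was lowest at 3 DAP, with a span of 2.39-fold (95% interval 2.34 to 2.43).

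Transporters followed several courses. HAK8, of the family of high-affinity potassium transporters, had v of 156, 129.8, 106, 84.7 and 42.7 in kernels and 3.55, 8.55 and 5.81 in endosperm, and 6 DAP was 0.274 times 0 DAP (95% interval 0.262 to 0.286). It was lower at each kernel stage than at the stage before. LTP3, a lipid transfer protein of cell surfaces, had 275, 369.7, 372, 141 and 89.2 in kernels and 6.43, 4.53 and 8.44 in endosperm, with its fall at 4 DAP and a ratio of 6 to 0 DAP of 0.324 (95% interval 0.314 to 0.334). Both boron transport genes that met the kernel level were members, but this list of 2 genes was drawn up after the data were seen. RTE2, a boron exporter, had 123, 103, 91.1, 88.5 and 75.7 in kernels and 13.7, 16.8 and 15.3 in endosperm. NIP3-1, a boron channel of the aquaporin superfamily, had 30.6, 13.2, 10.8, 14.6 and 26.6 in kernels and 1.41, 1.07 and 1.41 in endosperm. It fell at 2 DAP against 0 DAP, and at 6 DAP it was 0.867 times 0 DAP (95% interval 0.810 to 0.928), so the dip had passed.

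The plasma membrane aquaporin PIP1-3 shares its record with the near-identical PIP1-4, so its counts are uncertain. Its v was 45.6, 67.1, 55.4, 54.1 and 57.0 in kernels and 7.27, 8.43 and 4.05 in endosperm. The metal transporter ysl14A, of the yellow stripe-like family, had 20.3, 33.6, 19.4, 23.2 and 35.8 in kernels and 1.62, 2.01 and 1.76 in endosperm. Both were steady. Of the aquaporins 2 of 5 and of the sugar and nutrient transporters 3 of 14 at the kernel level were members.

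Among enzymes of carbon, nitrogen and protein turnover, all described here but gln3 were highest at 4 or 6 DAP. BMY1, a beta-amylase, had v of 97.5, 61.0, 98.1, 195 and 108 in kernels and 5.12, 6.23 and 6.68 in endosperm. Its 4 DAP value was 3.20 times its 2 DAP value (95% interval 3.03 to 3.37). ivr2, a soluble invertase that splits sucrose in the vacuole, had 39.6, 26.2, 18.9, 46.4 and 22.9 in kernels and 1.52, 0.755 and 0.880 in endosperm, and rose at 4 DAP against 3 DAP. It was the only member among 3 sucrose-cleaving genes at the kernel level, and sh1, the sucrose synthase of the endosperm, had 1394, 11774 and 15451 in endosperm against 83.4 to 142 in kernels.

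GST3, a glutathione S-transferase, an enzyme that conjugates foreign compounds, had v of 46.8, 48.0, 34.6, 86.4 and 59.9 in kernels and 2.82, 4.46 and 1.76 in endosperm. It rose at 4 DAP against 3 DAP, but its counts run parallel to those of another model within 2% in every library, so they may share reads. chi1, the chalcone isomerase of flavonoid synthesis, had 12.6, 10.2, 11.3, 25.0 and 14.7 in kernels and 1.10, 0.818 and 0 in endosperm. It too rose at 4 DAP against 3 DAP. see1, a protease of senescing leaves, had 45.9, 82.3, 44.7, 63.6 and 100.4 in kernels and 5.85, 5.35 and 3.52 in endosperm, and 6 DAP was 2.19 times 0 DAP (95% interval 2.09 to 2.29). The glutamine synthetase gln3 was steady, with 1.25, 0.314 and 0.352 in endosperm against 15.5 to 23.4 in kernels.

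The auxin-named members both rose over the kernel stages, and they were 2 of 15 auxin genes at the kernel level. AUX14 had v of 13.7, 19.7, 25.8, 30.8 and 39.1 in kernels and 1.15, 1.13 and 1.76 in endosperm, with 6 DAP at 2.84 times 0 DAP (95% interval 2.63 to 3.07). AUX6 had 19.2, 23.7, 23.0, 22.4 and 49.3 in kernels and 3.14, 2.83 and 1.76 in endosperm, with its rise at 6 DAP against 4 DAP. Of the stress-related members, asr1, named for abscisic acid, stress and ripening, had 127, 95.5, 70.4, 69.4 and 99.2 in kernels and 12.0, 11.4 and 4.93 in endosperm. Its technical replicates of 0 DAP gave 152 and 108, and it was steady with b alone and a passing dip with a alone. dehydrin7, of a family of dehydration proteins, kept to 4.65 to 5.10 in endosperm and 28.0 to 38.9 in kernels. The last named gene, tm20, had 16.9, 53.2, 46.1, 35.9 and 32.6 in kernels and 0.575, 2.20 and 2.64 in endosperm, with its rise at 2 DAP. The lists of MYB (5 genes at the kernel level), bZIP (4), WRKY (2), NAC (2), AP2/ERF (7) and SBP, TCP and GRF (5) factors held no member. Neither did those of photosynthesis (6), phenylpropanoid (2), other hormone (10), lipoxygenase (6), defence (5) and kinase (9) genes. Lists this short say little about these families, since only 37 of 834 named models at the kernel level were members. None of 27 zein genes met the kernel level.

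Several genes without a usable name had wide courses within kernels. GRMZM2G121308 had v of 56.9, 178, 329, 1147 and 364 in kernels and 3.87, 7.04 and 7.04 in endosperm. At 4 DAP it stood at 20.2 times its 0 DAP value (95% interval 19.5 to 20.8), and it fell at 6 DAP. GRMZM2G118873 had 49.1, 161, 228, 583 and 484 in kernels and 2.04, 3.71 and 4.57 in endosperm, with 6 DAP at 9.85 times 0 DAP (95% interval 9.50 to 10.2). GRMZM2G042933 rose late, with 11.2, 21.2, 26.6, 30.6 and 126 in kernels and 1.25, 0.880 and 1.76 in endosperm, and 6 DAP at 11.2 times 0 DAP (95% interval 10.4 to 12.1). Its technical replicates of 0 DAP gave 13.4 and 9.62, so with b alone it was under the minimum v of 10. GRMZM2G424205 had 10.8, 44.2, 47.8, 45.1 and 89.4 in kernels and 1.10, 1.19 and 0.528 in endosperm, while GRMZM2G040689 had 32.7, 76.0, 103, 109 and 178 in kernels and 2.46, 3.52 and 2.64 in endosperm. Both rose at 2 DAP, and their ratios of 6 to 0 DAP were 8.28 and 5.43.

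GRMZM2G145972 had the largest unnamed fall, with 207, 47.1, 54.1, 73.9 and 48.2 in kernels and 4.08, 6.67 and 5.98 in endosperm. GRMZM2G105250 fell late, with 75.6, 49.9, 41.3, 45.0 and 19.6 in kernels and 0.836, 0.692 and 2.81 in endosperm. Their 6 DAP values were 0.233 and 0.260 times those of 0 DAP. GRMZM2G000566 was a passing peak with 233, 362, 561, 832 and 289 in kernels and 5.07, 11.3 and 9.85 in endosperm. By the depth below the mean of 0 and 6 DAP on the log2 scale, the deepest passing dip was that of GRMZM2G458554. It had 39.5, 12.4, 45.9, 15.8 and 54.0 in kernels and 0.523, 1.13 and 2.29 in endosperm, and changed at each of the 4 steps. GRMZM2G458975 had 141, 93.4, 32.5, 98.8 and 75.1 in kernels and 0.784, 7.23 and 5.45 in endosperm. GRMZM2G069340 had 129, 85.4, 29.8, 90.6 and 68.9 in kernels and 0, 4.84 and 0 in endosperm, and its kernel counts ran so close to those of GRMZM2G458975 that both may share reads.

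Unnamed genes with large kernel-to-endosperm ratios were GRMZM2G000566, described above, GRMZM2G014844, GRMZM5G885766 and GRMZM2G105631. GRMZM2G014844 had 28.2, 328, 79.6, 252 and 53.8 in kernels and 0, 0.126 and 0.176 in endosperm. Its technical replicates of 0 DAP gave 5.35 and 44.7, an unequal pair, so that its 0 DAP value, its ratio, its place among the members and its course are uncertain. With a alone it was below the minimum v of 10 and rising, and with b alone it was a passing peak. GRMZM5G885766 had 23.9, 46.1, 57.7, 72.7 and 49.7 in kernels and 0, 0.377 and 0.176 in endosperm, and 6 DAP was 2.08 times 0 DAP (95% interval 1.95 to 2.21). Its technical replicates gave 17.2 and 28.8 at 0 DAP, and the ratio of v + 1 was 2.78 with a alone and 1.70 with b alone, so the call and the rising class are lost with b and its course is uncertain. GRMZM2G105631 was steady, with 0.366, 1.19 and 0.704 in endosperm against 33.0 to 46.5 in kernels.

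Among the 143 members tied to 1 record of the RefSeq gene order, 4 (2.80%) lay next to another member. Of the 6115 models at the kernel level, a much larger set, 31.5% lay next to another such model. A share of this kind grows with the size of the set. The shares are therefore not comparable, and sets of equal size were not drawn. Besides zmm29 and MADS18 the neighbouring members were GRMZM2G073079 and GRMZM2G076348. The v of GRMZM2G073079 was 123, 40.3, 71.4, 57.0 and 68.5 in kernels and that of GRMZM2G076348 205, 66.0, 84.8, 62.9 and 80.2, and both fell at 2 DAP against 0 DAP. In endosperm they had 5.85, 5.85 and 3.34, and 7.21, 6.48 and 6.33.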

How the data were processed

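The deposited files hold raw read counts per gene model, 1 column of whole numbers per library, as made by the authors. The submitters' processing notes name bedtools. No aligner, genome build, annotation release or rule for multiply mapped reads is given in the sources used here. The extract protocol in the labels describes 2 rounds of poly(A) selection and SOLiD 4 libraries. Strand was not used.

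TMM factors came from edgeR 4.0.16 in R 4.3.3 over the 9 libraries, and reads and effective sizes of the 0 DAP technical replicates were summed. Folds between stages are ratios of v, while the rule, calls and classes used v + 1. Intervals are exact conditional binomial 95% intervals. They cover counting error only, since reads are not independent molecules. Classes and calls were set beside the 10062 models with a lowest kernel v of at least 10. The rule was also run on simulated counts whose spread was set to that of technical replicates. That run held no variation between plants, and no result here rests on it.

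The members and lists were chosen with earlier results of these data known. Symbol patterns of the lists were corrected for false matches, and the benzoxazinoid, TIFY, boron and zein lists were added, after the data were seen. The text names all members with a usable name, those with the 5 largest kernel-to-endosperm ratios, the 5 largest rises and 5 largest falls, the 3 highest peaks, the 3 deepest dips, the 5 highest medians and the 2 on either side of the threshold. GRMZM2G073079 and GRMZM2G076348 were added as neighbours after their values were seen. Names and gene order were read from a RefSeq gene table (assembly Zm-B73-REFERENCE-NAM-5.0) and no coordinates, with 64 members lacking a record. Alternatives were other scalings (DESeq2 1.42.0 size factors, library totals, totals without the 100 most counted models), each technical replicate alone, other thresholds and pseudocounts, thinned counts and stages left out. Tables were made in pandas 2.3.3 with numpy 2.4.6, intervals in scipy 1.17.1 and plots in matplotlib 3.10.9, under Python 3.11.15.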

Additional observations from a re-analysis of the deposited data

How the results depend on the processing

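Of 180 alternative values 155 kept within 1.5 times the value reported and 25 moved further. The 213 members became 597 by library totals, 418 by totals without the 100 most counted models, 121 with a minimum v of 20, 672 with a ratio of 2 and 49 with a ratio of 8. Leaving 1 stage or 1 technical replicate out of the rule gave 210 to 322, with 322 reached both without 0 DAP and without 8 DAP. Of the 213, 193 were members by DESeq2 size factors and 208 and 206 with technical replicate a or b alone. With a ratio of 4 the calls were 4 higher and 1 lower at 2 over 0 DAP, 0 and 1 at 3 over 2 DAP, 0 and 0 at 4 over 3 DAP, 1 and 4 at 6 over 4 DAP, and 7 and 2 at 6 over 0 DAP. With a class threshold of 1.5 there were 32 steady, 51 falling and 64 rising members. With 4 there were 193 steady, 2 falling, 7 rising, 7 passing peaks and 4 passing dips. The cause of these moves lies in the thresholds and stages used, except for the scalings, where it was not tested. Shares of all models were not taken for the calls at a ratio of 4 or for the class thresholds of 1.5 and 4. Members called between any 2 kernel stages numbered 126, against 32% of all models. With 1 stage left out they numbered 90 to 115, the fewest without 0 DAP, and the share of all models was not taken there. The steady share was smaller among members under each scaling, pseudocount and thinning tried, at 37.6% to 42.3% of members against 64.1% to 68.2% of models. Scaling by kernels alone, leaving out members of like counts and leaving out a kernel stage from the calls were chosen after seeing the data. No paired analysis was possible because each stage has 1 library and only 0 DAP has technical replicates. With 1 biological sample per stage, differences between plants were not measured, and depth limits the endosperm values to about 3 reads.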

Other observations

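A few genes alternated between stages, a pattern chosen after their values were seen and not tested. At 2 and at 4 DAP 3 members (1.41%) lay at least 1.5-fold above their values at 0, 3 and 6 DAP, against 0.119% of the models at the kernel level, and 4 members (1.88%) lay at least 1.5-fold below, against 0.109%. The high ones were glu2, GRMZM2G014844 and GRMZM2G119465, and the low ones bHLH116, GRMZM2G458554, and GRMZM2G051395 with GRMZM2G353444, whose counts are alike. GRMZM2G119465 had v of 28.1, 351, 108, 367 and 81.3 in kernels, and its technical replicates of 0 DAP gave 7.28 and 43.2. With a alone it was under the minimum v of 10 and no member, and with b alone it was a passing peak and not rising. GRMZM2G353444 had 23.7, 13.2, 30.8, 13.7 and 36.4.

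Counting any size of difference, 10 of 21 detected TIFY genes (47.6%) were lower at 2 and 4 DAP than at 0, 3 and 6 DAP and 1 was higher. This list was added after the data were seen, and only 10 of its 21 genes met the kernel level. Its share is therefore not comparable with the shares below, which are of models at the kernel level. Among the members 21 (9.86%) were lower and 19 (8.92%) higher, against 6.65% and 6.38% of the models at the kernel level.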
